A study of Mus musculus with 20 samples.

Results

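The comparison described here is that of the injured with the unaffected area of the dorsal epidermis on day 4 of imiquimod treatment. Its members were chosen by their labels: 4 arrays of the injured area and 4 arrays of the unaffected area, 8 of the 20 arrays of the series. Each area was sampled in 2 biological replicates of Grhl3 WT and 2 of Grhl3 cKO (conditional knockout). Both genotypes enter the same model, with genotype as a covariate. All 8 arrays carry the strain label C57B6 and the label Female, and all carry Krt14cre in their titles, WT included. The remaining 12 arrays, all labelled Male, are 4 of wax-stripped skin on day 4 and 4 each of injured and unaffected areas of recovery skin on day 8. RNA came from whole epidermis lifted off with dispase after the dorsal skin had been shaved, so fewer cells of a type and less RNA per cell cannot be told apart in any value below. The replicates are called biological in the labels, which do not say whether the injured and unaffected areas of one replicate number came from 1 mouse.

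The epidermis is a layered epithelium in which keratinocytes divide at the base, differentiate as they move outward and form the cornified barrier. Imiquimod is a Toll-like receptor agonist that, applied as a cream, produces a psoriasis-like state in mouse skin, with thickened epidermis, disturbed differentiation and immune cells entering the tissue. Grhl3 encodes a transcription factor of epidermal differentiation, barrier formation and wound repair, and the keratin 14 promoter drives Cre in basal keratinocytes and the cells derived from them. Unaffected skin here is an area of treated animals and not skin of untreated animals.

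Values are probe-set intensities, the brightness of the probes for one transcript region on a linear scale. A change is a difference of log2(intensity + 16), a scale on which 1 is a doubling and which understates the change of dim probe sets. No gene is named, because the levels did not bear out the pairing of probe-set IDs with gene symbols. Ribosomal protein genes are strongly expressed in every cell, yet the 207 probe sets so labelled had a median signal at percentile 54.6 of the table, close to percentile 52.1 for the 1023 labelled as olfactory receptors, which are receptors of the nose. When 8989 pairs that carry the same symbol were followed over the 20 arrays their median r was 0.075, and that of 5000 pairs drawn at random was 0.014. For the same reason neither the Grhl3 transcript nor markers of keratinocytes or other cell types could be checked against the labels, and no sequence is shown. The median intensity of the 8 arrays lay between 170.5 and 188.8 and their 75th percentile between 9.017 and 9.179 on the log2 scale. The medians parted by area, with 170.5 to 181.3 in the injured and 183.2 to 188.8 in the unaffected arrays. The number of arrays limits the precision.

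The area was the main difference among the 8 arrays. On the first principal component (74.3% of their variance) they formed separate groups, with the 4 unaffected arrays between -51.2 and -46.7 and the 4 injured arrays between 45.7 and 52.8. The second held 8.3%. Within each area its lowest array was WT replicate 2 in unaffected skin (-17.6) and WT replicate 1 in injured skin (-21.5), and the highest was a cKO array (27.5 and 17.9), but unaffected cKO replicate 2 (-6.43) lay below unaffected WT replicate 1 (-3.27). Replicate arrays correlated across probe sets at 0.979 to 0.99, and arrays of different areas at 0.897 to 0.92. The median SD of a probe set between the 2 arrays of a group was 0.095 (log2) in unaffected WT, 0.13 in unaffected cKO, 0.097 in injured WT and 0.079 in injured cKO skin.

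Of 26310 probe sets tested, 11563 (43.9%) differed between the areas at a Benjamini-Hochberg adjusted p under 0.05 in limma. In the injured area 5557 (21.1%) were higher and 6006 (22.8%) were lower. Most of these changes were small: the median called change was 0.46 among the higher and -0.57 among the lower ones, and 6721 of the 11563 were under 1.5-fold. The median 95% interval of a change extended 0.21 to either side. All 4 injured arrays lay above all 4 unaffected arrays in 5203 probe sets (19.8%), and below them in 5560 (21.1%). The median change over all probe sets tested was 0.006. After quantile normalization, which shifts that median to 0.043, 6430 were higher and 5719 lower, so the balance of directions among all calls turns with the scaling.

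The large changes were skewed in a way that did not turn with the scaling. At 2-fold or more, falls outnumbered rises: 1270 probe sets (4.83%) were lower and 649 (2.47%) higher in the injured area, and 1185 and 678 after quantile normalization. At 4-fold or more there were 223 falls (0.848%) and 163 rises (0.62%), and 205 and 165 after quantile normalization. At 8-fold or more the order was the opposite, with 74 rises (0.281%) and 37 falls (0.141%), and 72 and 38 after quantile normalization. At 32-fold or more 20 rises and 2 falls were left in either case, and 12 rises and no fall reached 64-fold. Adding 16 to each value shrinks the change of a probe set that is dim in either area. Counts at 4-fold or more were not repeated with another value added, so how far this shapes them was not tested.

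**Figure D1:**
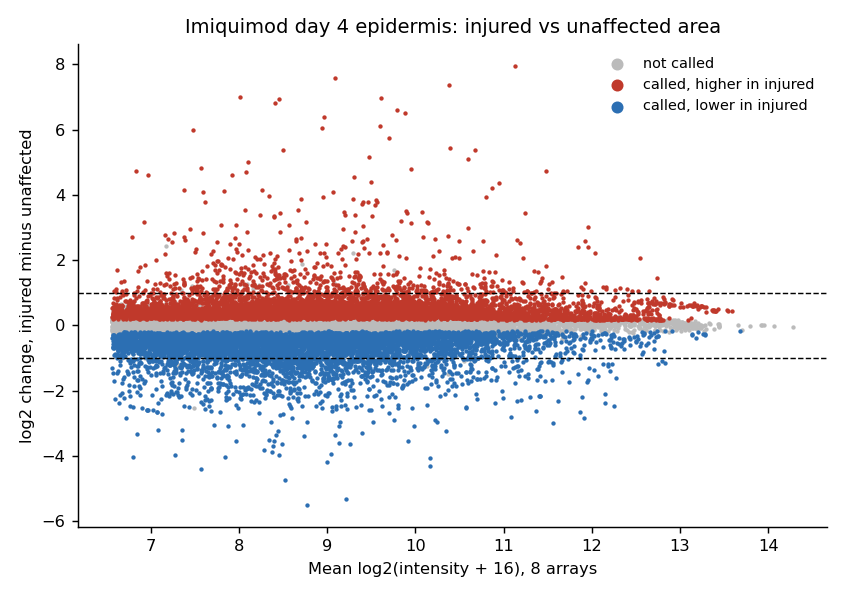
Change of each of the 26310 probe sets between injured and unaffected epidermis (vertical axis, log2) against its mean signal over the 8 arrays (horizontal axis, log2 of intensity + 16). Red and blue points passed the limma test, grey points did not, and the dashed lines mark 2-fold; the highest rise is at 7.96 and the deepest fall at -5.5.

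Falls of at least 2-fold were more frequent among bright than among dim probe sets. The filter on dim probe sets uses the mean of all 8 arrays, so a probe set dim in unaffected skin could pass it through bright injured arrays, and the shares below therefore come from a fit of all 35080 distinct probe sets with no filter. When these were divided into quintiles by their mean signal in unaffected day 4 skin, 8.38% of the brightest quintile and 0.128% of the dimmest quintile fell at least 2-fold. With 16 added to each value, a probe set that starts below 16 units cannot fall 2-fold. The share that rose at least 2-fold was 1.03% in the dimmest, 2.57% in the middle and 1.81% in the brightest quintile. These quintiles use values that also enter the comparison, so the division was repeated on the 4 unaffected recovery arrays, which do not. There, 8.44% of the brightest and 0.428% of the dimmest quintile fell at least 2-fold, and 1.53% and 1.33% rose. Among the 26310 probe sets that passed the filter, 3.21% of the dimmest quintile rose in the first division and 3.99% in the second, shares that this selection raises.

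**Figure D2:**
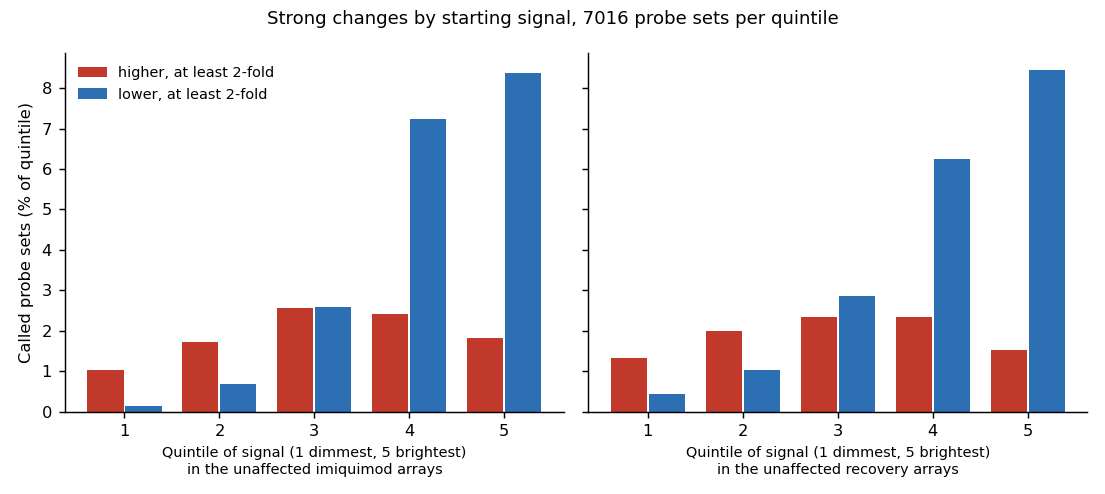
Share of probe sets called and changed at least 2-fold in the fit with no filter (percent of the 7016 in a quintile, from 0), by quintile of signal in the unaffected imiquimod arrays (left) or the unaffected recovery arrays (right). Blue bars, the falls, grow toward the bright quintiles, from 0.128% to 8.38% on the left and from 0.428% to 8.44% on the right; red bars, the rises, lie between 1.03% and 2.57% on the left and between 1.33% and 2.35% on the right.

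A small group of probe sets crossed most of the intensity range. Of 35080 distinct probe sets, 27 moved from the lowest quartile of signal in unaffected skin (up to 78.6 intensity units) to the highest quartile in injured skin (above 518), and 13 moved from the highest quartile (above 535) to the lowest (up to 76.8). Each was chosen by its values in the 2 areas, so the counts are a description. The 649 rises of at least 2-fold held 1.48% to 1.72% of an array's summed signal in unaffected and 5.31% to 5.86% in injured skin. The 1270 falls held 7.27% to 7.69% in unaffected and 2.24% to 2.56% in injured skin. These sets were chosen on the same arrays, so the shares describe the size of the shift and test nothing.

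The 10 largest rises were taken from called probe sets whose injured and unaffected arrays did not overlap, and ran from 6.4 to 7.96 on the log2 scale, with limma adjusted p between 1.9e-07 and 8.7e-06. The largest was in the row labelled 10562667. It read 151 and 112 in the unaffected WT arrays, 147 and 100 in the unaffected cKO arrays, 45408 and 13818 in the injured WT arrays and 49782 and 49219 in the injured cKO arrays. The change was 7.96 ± 0.37 (SE, n = 4 per area, limma adjusted p = 4.54e-06). One injured array, WT replicate 2, stood well below the other 3, and still far above every unaffected array.

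The second largest rise, in the row labelled 10486425, was more even. Its unaffected arrays read 27.3 and 12.2 in WT and 29.1 and 28 in cKO skin, and its injured arrays 6967 and 7891 in WT and 7604 and 7823 in cKO skin. The change was 7.59 ± 0.14 (SE, n = 4 per area, limma adjusted p = 1.9e-07). The 4 injured arrays lay close together, in contrast to those of the largest rise.

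The other 8 rises shared this shape of a low start and a bright end. Over the 10 rises, the mean of the 4 unaffected arrays lay between 6.99 and 128 intensity units and that of the 4 injured arrays between 3073 and 39557. The fourth rise went from 6.48 and 11.7 in WT and 5.37 and 4.42 in cKO skin to 3527 and 4522 in WT and 2339 and 1905 in cKO skin. Here both injured cKO arrays were below both injured WT arrays, and the log2 change was 7.33 in WT and 6.67 in cKO skin. The difference had an unadjusted limma p of 0.0278 and did not pass after adjustment over all probe sets. The ninth rise reached almost the same value in each injured array (9033 and 9112 in WT, 9093 and 8865 in cKO skin), from 44.4 to 185 in the unaffected ones.

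The 10 largest falls, chosen in the same way, ran from -5.5 to -3.98, with limma adjusted p between 8.61e-07 and 0.00032. The largest was in the row labelled 10561302. Its unaffected arrays read 2555 and 2757 in WT and 3746 and 2819 in cKO skin, and its injured arrays 36.6 and 24.1 in WT and 81 and 72.2 in cKO skin. It fell by 5.5 ± 0.17 on the log2 scale (SE, n = 4 per area, limma adjusted p = 8.61e-07). The lowest unaffected array was far above the highest injured one, and both injured cKO arrays were above both injured WT arrays.

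The second largest fall, in the row labelled 10492890, showed the same order of genotypes in the injured area. It read 3861 and 3114 in unaffected WT, 4492 and 3648 in unaffected cKO, 44.4 and 23.8 in injured WT and 187 and 139 in injured cKO skin. It fell by 5.33 ± 0.32 on the log2 scale (SE, n = 4 per area, limma adjusted p = 1.2e-05). The change was -6.15 in WT and -4.52 in cKO skin, a difference with an unadjusted limma p of 0.00158 that did not pass after adjustment.

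The other falls included some of the most variable injured values. The seventh went from 5032 and 4024 in WT and 5612 and 4290 in cKO skin to 303 and 60 in WT and 712 and 336 in cKO skin, and had the widest error of the 20 (-4.07 ± 0.5, SE, n = 4 per area, limma adjusted p = 0.00032). The fourth was tighter, from 626 to 977 in the unaffected arrays to 17.9 to 34.9 in the injured arrays. The tenth started lower in WT (1167 and 678) than in cKO skin (2260 and 2023) and ended at 50.6 to 97.2 in the 4 injured arrays.

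**Figure D3:**
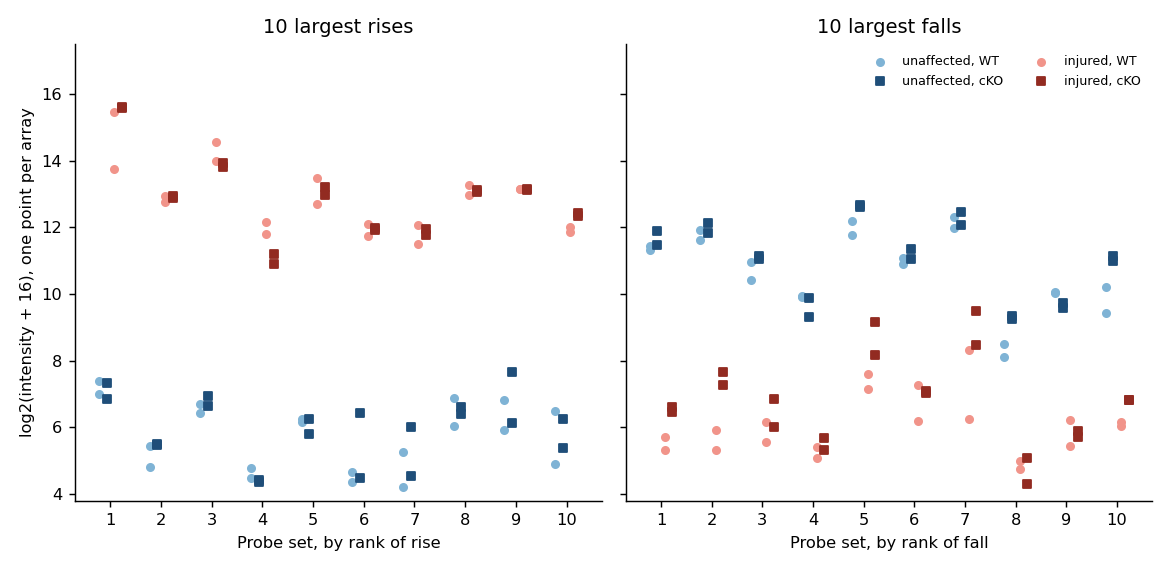
Signal of the 10 largest rises (left) and 10 largest falls (right) in each of the 8 arrays (vertical axis, log2 of intensity + 16; horizontal axis, rank of the probe set). Circles are WT and squares cKO arrays, blue unaffected and red injured; the areas do not overlap in any of the 20, which was a condition of their choice, and rise 1 has one injured WT array below the other 3 injured arrays.

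The response was next compared between the genotypes. Tested within WT skin, the injured area showed 3020 rises (11.5%) and 4137 falls (15.7%), and within cKO skin 3353 (12.7%) and 3758 (14.3%). Both genotypes called 5647 probe sets, 5646 of them in the same direction, out of 7157 called in WT and 7111 in cKO skin. A further 3207 were called in the pooled comparison and in neither genotype alone. No array is shared by the WT and cKO changes, and over all probe sets tested, which are not independent replicates, their Pearson r was 0.921 and their Spearman rho 0.863.

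For the cKO minus the WT response, 692 probe sets (2.63%) had an unadjusted limma p under 0.05, against 1316 (5.0%) expected by chance. That number depended on the arrays in the fit. It was 1099 with all 20 arrays, and without unaffected cKO replicate 1 it exceeded the expected number, so its place below that number is not read as likeness of the genotypes. After adjustment this direct test called 0 of 26310 probe sets (0.0%, smallest limma adjusted p = 0.617). Without unaffected WT replicate 1 it called 3, without unaffected WT replicate 2 it called 4, and with all 20 arrays in the fit it called 1. This does not show equal responses, since the median 95% interval of the difference extended 0.44 to either side. In 23332 probe sets that interval lay within a 2-fold difference either way, and so it did in 1196 of the 1919 that changed at least 2-fold. Among the 649 strong rises the median change was 1.31 in WT and 1.46 in cKO skin, and 434 were larger in cKO. Among the 1270 strong falls it was -1.41 in WT and -1.35 in cKO skin, and 487 were larger in size in cKO. By array, the median change of the strong rises from the unaffected mean of the same genotype was 1.28 and 1.37 in the 2 injured WT arrays and 1.41 and 1.51 in the 2 injured cKO arrays. That of the strong falls was -1.37 and -1.45 in WT and -1.33 and -1.39 in cKO arrays. These medians of the 4 injured arrays lay close together, but the sets were chosen for a change in the same arrays. That choice favours like values in them, so the closeness is a description and tests nothing.

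**Figure D4:**
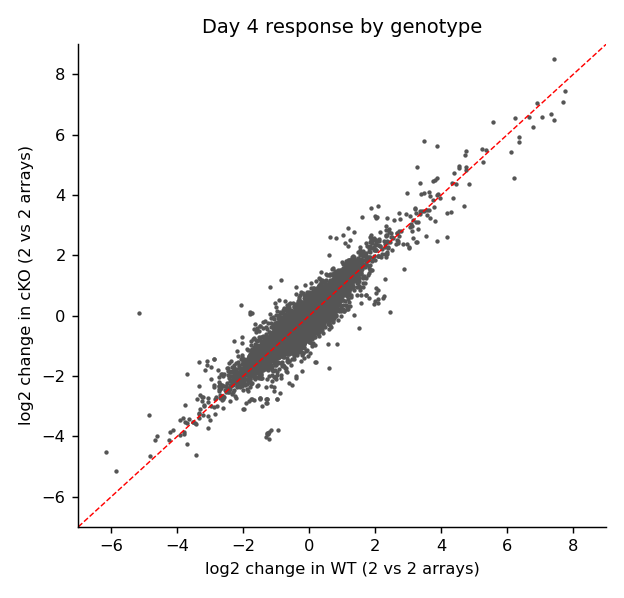
Change between injured and unaffected skin in cKO (vertical axis, log2) against WT mice (horizontal axis, log2), one point per probe set, from 2 arrays per area and genotype, with a dashed line of equal change. Most points follow the line (r = 0.921); the group below it near -1 in WT and -4 in cKO holds neighbouring rows with nearly equal values.

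A few probe sets departed from the common response by a wide margin, and are given as values chosen after they were seen. In 17 the WT and cKO changes differed by at least 2 on the log2 scale, and 8 of these were 8 consecutive rows of the deposited table with nearly the same values in all 20 arrays (r of at least 0.997 between any pair), so they may share probes and count as 1 pattern. They read 79.1 to 105 and 158 to 209 in the unaffected WT arrays, and 361 to 492 and 751 to 1007 in the unaffected cKO arrays. In injured skin they read 35.1 to 48.6 and 47.3 to 60.7 in WT, and 25.9 to 35.4 and 19.4 to 23 in cKO arrays. In unaffected skin both cKO arrays were thus above both WT arrays, and the arrays of each genotype also differed from one another, while in injured skin both cKO arrays were below both WT arrays in each of the 8. Another probe set of the 17 read 526 and 328 in unaffected WT against 3021 and 2582 in unaffected cKO skin, and 194, 220, 206 and 170 in the 4 injured arrays. In the probe set with the widest gap, unaffected WT replicate 1 read 19021, unaffected WT replicate 2 read 508, and the other 6 arrays read 42.8 to 98.4, so the 2 unaffected WT arrays differed widely from each other as well.

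The strong changes lay near each other in the row order of the deposited table. Of the 163 rises of at least 4-fold, 41 (25.2%) had another such rise in an adjacent row, and of the 223 falls of at least 4-fold 28 (12.6%) had another fall there, although such rises and falls made up 0.62% and 0.848% of the probe sets tested. A row has a neighbour on either side, so the share to expect by chance is above these single-row shares. At 2-fold or more the falls had the larger share, with 297 of 1270 (23.4%) against 93 of 649 rises (14.3%). The longest unbroken runs were of 8 rows in each direction at 4-fold, and of 9 rises and 11 falls at 2-fold. Adjacent rows can hold probe sets of 1 transcript or with shared probes, as the 8 rows above may, and which of the runs do was not tested.

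The nearest comparison in the series is that of the injured and unaffected areas of recovery skin, which uses 8 other arrays. It cannot be told apart from labelled sex, experiment and day. In addition, 5 probe sets parted the 8 day 4 arrays, labelled Female, from the 8 wax-stripped and unaffected recovery arrays, labelled Male, by at least 3 on the log2 scale, and in all 5 the 4 injured recovery arrays sided with the day 4 arrays despite the label Male. In one of them the day 4 arrays read 3308 to 5940, the injured recovery arrays 4496 to 4931 and the others 0.956 to 22.8. The injured and unaffected recovery arrays thus part from each other in these 5 probe sets, as the arrays of different labelled sex do. Within recovery skin, the difference of areas therefore cannot be told apart from whatever separates the arrays there, and its cause was not tested. Every recovery change below rests on those 4 injured arrays, and none can be had without them.

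In a fit of the 16 arrays, the injured recovery arrays exceeded the unaffected recovery arrays in 6776 probe sets (25.8%) and lay under them in 8434 (32.1%). Of the 649 strong day 4 rises 642 were tested there, and 594 were higher in recovery skin as well, with a median recovery change of 1.2 against -0.07 over all probe sets. Of the 1270 strong day 4 falls 1267 were tested, 970 were lower and 46 higher in recovery skin, with a median of -0.8. Set against each other in 1 test, the responses differed in 6601 probe sets: 3087 (11.7%) had a more positive and 3514 (13.4%) a more negative change on day 4. That total became 4312 without injured recovery cKO replicate 1. The first of these counts became 1765 without that array, 1804 without injured recovery WT replicate 1, 2003 without injured day 4 cKO replicate 1, 1732 once probe sets below the 50th percentile of signal were left out and 1880 with the replicate number as a block. Among the strong rises, 193 of 642 were called larger on day 4 and 29 smaller, and among the strong falls 760 of 1267 were called deeper on day 4 and 11 shallower. Since these sets were chosen for a strong change in the day 4 arrays, such counts lean toward a larger day 4 value.

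Nearly all of the largest rises and falls were also present in recovery skin, and most of both had a smaller response there. All 10 rises were higher in injured recovery skin, by 4.58 to 6.85, and in 6 of them the day 4 response was larger by the direct test. The third rise read 16191 and 24197 in WT and 14490 and 15608 in cKO skin on day 4, and 8562 and 6616 in WT but 1133 and 1347 in cKO skin in the injured recovery area. The ninth rise, by contrast, was at 8130 to 8700 in the 4 injured recovery arrays and differed from day 4 by -0.09 in response (limma adjusted p = 0.904). Of the 10 falls, 9 were lower in injured recovery skin and 8 had a deeper day 4 response. Rises and falls were both chosen as the largest day 4 changes, which favours a larger day 4 response in this test. A deeper day 4 response did not always mean a lower injured signal on day 4. The injured means on day 4 and in recovery were 58.9 and 75 in the third fall and 75.2 and 60.9 in the tenth. Their unaffected means were higher on day 4, at 1919 against 628 in the third and 1532 against 228 in the tenth. The seventh fall stood at 3540 to 4794 in the injured recovery arrays, against 5432 to 6007 in the unaffected ones (a change of -0.5, limma adjusted p = 0.248). The largest fall stood at 38.1 to 371 against 3180 to 4000, and its day 4 and recovery responses did not pass the direct test (difference -0.95, limma adjusted p = 0.0917).

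Wax-stripped skin has no unaffected area in the arrays analysed here and was labelled Male, so its values are given beside the day 4 values without a test. In all 10 rises each of the 4 wax-stripped arrays was below each of the 4 injured day 4 arrays, and in 7 of them all 4 wax-stripped arrays also lay above every unaffected day 4 array. In the eighth rise, which is among those 7, this was nearly a tie. Its lowest wax-stripped and highest unaffected array both read 102 when rounded. Both wax-stripped cKO arrays were above both wax-stripped WT arrays in all 10 rises, and over all probe sets tested in 20.6%. In the falls the cKO arrays were above the WT arrays in 3 and below them in 6, and over all probe sets tested they were below in 20.9%. The largest rise read 122 and 88.2 in wax-stripped WT and 7863 and 9434 in wax-stripped cKO skin, and the ninth 2887 and 2853 in WT and 7007 and 5911 in cKO skin. In all 10 falls each wax-stripped array was above each injured day 4 array, and in 3 of them all 4 also lay below every unaffected day 4 array. Rises and falls were chosen for extreme values in the injured day 4 arrays, which favours this order against those arrays. The share of all probe sets in which the wax-stripped arrays part from the day 4 arrays was not computed, so these counts are a description. The fall ranked 5 read 4941 to 6562 in wax-stripped skin, within the range of 3493 to 6562 in unaffected day 4 skin, against 126 to 558 in injured day 4 skin.

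**Figure D5:**
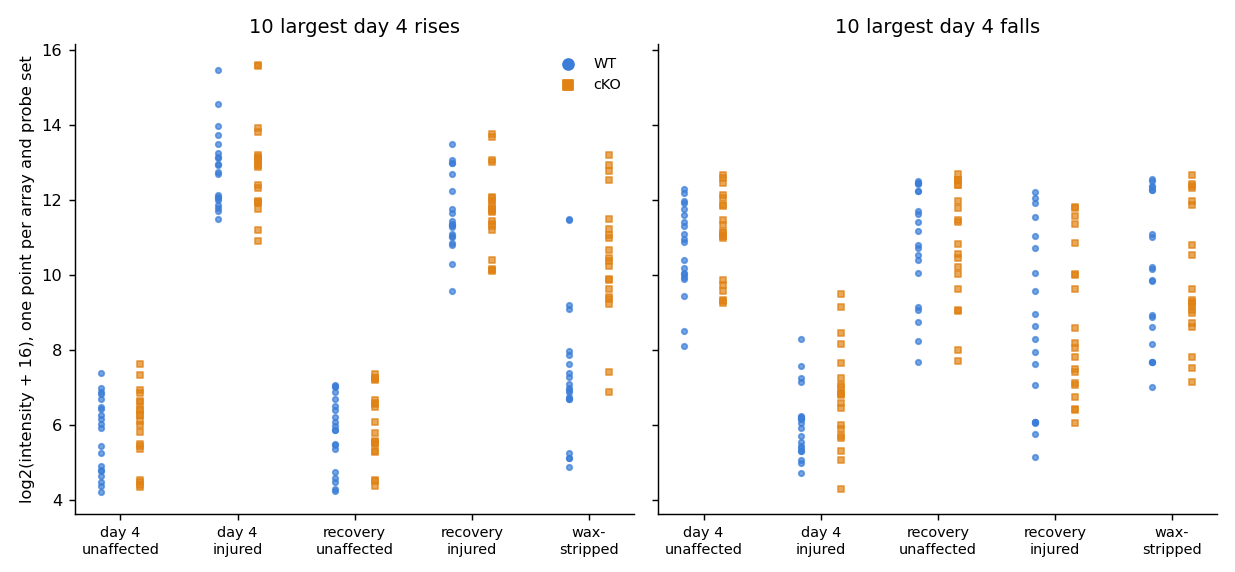
Signal of the 10 largest day 4 rises (left) and falls (right) in the 5 conditions of the series (vertical axis, log2 of intensity + 16; one point per array and probe set, WT circles and cKO squares). In each rise the 4 wax-stripped arrays lie below the 4 injured day 4 arrays, and in 7 of the 10 above every unaffected day 4 array. In each fall they lie above the 4 injured day 4 arrays. The choice of the probe sets by their injured day 4 values favours this order against the injured arrays.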

How the data were processed

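The deposited values are intensity on a linear scale for 35556 probe sets on 20 arrays. The submitters' processing notes name PLIER, which models the probes of a probe set together, and Affymetrix Expression Console; no version is given in the sources used here. The labels' protocols name biotinylated cRNA and Gene ST arrays. Duplicate rows (476, equal on every array) were dropped to 35080 distinct probe sets, and of these the 26310 at or above the 25th percentile of mean log2(intensity + 16) in the fitted arrays were tested. Tests used limma 3.58.1 in R 4.3.3 (lmFit, eBayes without trend) with Benjamini-Hochberg adjustment over all probe sets tested and a threshold of 0.05. The pooled comparison had area and genotype as terms (5 residual degrees of freedom), the genotype difference of responses used 4 group means, and the recovery contrasts used 8 group means over 16 arrays. The fit was tested on simulated data.

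The probe table lists 23410 IDs, 21789 with 1 symbol and 1621 with several; 12146 are unnamed here. The pairing was not borne out, so the planned gene lists, cell type markers and gene names were not used. The rule for named items then took the 10 largest rises and 10 largest falls among called probe sets without overlap of arrays, and IDs of the first 2 of each are printed as labels of rows. The comparison and the lists were chosen with earlier results of these data known. Alternatives are pseudocounts of 1 and 64, quantile normalization, other filters, trend and robust settings, other sets of arrays, a replicate block and leaving out each array.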

Additional observations from a re-analysis of the deposited data

Results flagged for a closer look

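In the 20 named probe sets, each group of 4 arrays of one area was searched for an array far from the other 3 (40 groups; chance alone flags about 1 in 20). It found 4, each on a different array. In the largest rise injured WT replicate 2 read 13818 against 45408 to 49782 in the others. In the second rise unaffected WT replicate 2 read 12.2 against 27.3 to 29.1. In the sixth rise unaffected cKO replicate 1 read 70.3 against 4.75 to 9.15, and in the fourth fall unaffected cKO replicate 2 read 626 against 930 to 977.

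The response differed between day 4 and recovery skin by a direct test in 6601 probe sets. Among the named rises the day 4 response was larger by 1.83 in the first, 1.42 in the second, 2.75 in the third, 0.84 in the fourth, 1.95 in the fifth and 2.03 in the eighth (log2). Among the named falls the difference was -3.48 in the second, -1.93 in the third, -1.45 in the fourth, -3.51 in the fifth, -2.64 in the sixth, -3.58 in the seventh, -2.08 in the ninth and -2.3 in the tenth. The named probe sets were chosen as the largest day 4 changes, so these differences lean toward a larger day 4 response. Labelled sex, day and experiment differ between the 2 responses and cannot be told apart from the difference. The recovery response also rests on the injured recovery arrays, which sided with the arrays labelled Female in the 5 probe sets described above, while the unaffected recovery arrays did not.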

How the results depend on the processing

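The 20 named probe sets kept their direction and their call in each alternative that tested them (the filter at the 50th percentile left out the falls ranked 4 and 8), and the counts of rises and falls of at least 2-fold stayed within 1.5 times. The pooled count of 11563 (5557 up, 6006 down) was 9729 to 11500 when an array was left out (4476 to 5327 up, 5220 to 6173 down). The contrast of areas within WT gave 7157 (3020 up) and that within cKO 7111 (3353 up, 3758 down). Each contrast compares fewer arrays, with an error estimated from all 8. The replicate number as a block gave 10444, of which 10201 were also called without it. The deviations of same-numbered arrays correlated at -0.176 in WT and -0.045 in cKO day 4 skin, which does not meet the rule for treating the numbers as pairs and does not settle whether same-numbered areas share a mouse; crossing the WT numbers, chosen after seeing this, gave 11115. The genotype difference of responses was 0 with the block, 1 (1 up) with all 20 arrays, and 0 to 4 when an array was left out (0 to 4 up, 0 to 3 down). The day 4 minus recovery count of 6601 was 4312 to 8472 without one array (1765 to 4183 up, 2547 to 4289 down), with 1732 up under the filter at the 50th percentile and 1880 up with the replicate block. That filter took the recovery falls from 8434 to 4911; it tests fewer probe sets. Among filtered probe sets the dimmest quintile of unaffected day 4 signal held 3.21% rises and 0.019% falls of at least 2-fold. Divisions added after seeing the data gave 3.99% and 0.874% with quintiles of the unaffected recovery arrays, 1.03% and 0.128% with no filter, and 1.33% and 0.428% with both; the filter admits dim probe sets by their injured values. The cause of the other changes was not tested. The number of arrays limits the precision.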
